A study of Mus musculus with 78 samples.

Results

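Oxidative phosphorylation is the mitochondrial process in which electrons from nutrients pass along a chain of protein complexes, protons are pumped across the inner membrane, and ATP synthase makes ATP as the protons flow back. Complex I (NADH dehydrogenase) and complex II (succinate dehydrogenase) feed electrons into the chain, complex III (the cytochrome bc1 complex) and complex IV (cytochrome c oxidase) carry them to oxygen, and complex V is ATP synthase. The retina is known for its high use of oxygen and ATP, and photoreceptors hold most of their mitochondria in the inner segments. The genes described here are the nuclear genes of the subunits. They were taken by symbol, as all genes with a probe set of 1 symbol that starts with Ndufa, Ndufb, Ndufc, Ndufs or Ndufv (assembly factors named Ndufaf left out), Uqcr, Cox4 to Cox8 or Atp5, or that is Sdha, Sdhb, Sdhc, Sdhd or Cyc1. The rule found 82 genes of the 19301 with a single-symbol probe set on the array: 33 in complex I, 4 in complex II, 9 in complex III, 19 in complex IV (Ndufa4 and its relative Ndufa4l2 included) and 17 in complex V.

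Cells of adult mouse retina were sorted by fluorescence at 200 cells a sample, after papain dissociation of 15 min, and their RNA was hybridised to Affymetrix Mouse Gene 1.0 ST arrays, which read many probes along each transcript. The 78 arrays form 26 sets of 3 replicate arrays from 22 transgenic lines. The microglia line is Tg(Csf2rb2-EGFP)334Gsat. The photoreceptor lines are b2-Cre × Rosa26-LSL-RFP, labelled rod and measured as 3 sets (1st, 2nd and single), and 2 lines labelled cone, Tg(Chrnb4-EGFP)1Gsat and d4-Cre × Rosa26-LSL-RFP. The horizontal cell line is B6Cf1-Tg(Gja10-Cre, #14)BR. Of the 4 bipolar lines, B6:FVB-Tg(Pcp2-EGFP)2Yuza is labelled rod bipolar, B6Cf1-Tg(mGlur6-Cre)BR ON-bipolar, and both B6Cf1-Tg(Kcng4-CreERT2, #)BR and Tg(Lhx4-EGFP)199Gsat bipolar. The 9 amacrine lines are 129S6-Chat_tm1(cre)Lowl/J (starburst, called ChAT), Tg(Crh-Cre)282Gsat/Mmnc, Tg(Arc-EGFP)194Gsat/Mmcd (3 sets), Tg(Igfbp2-EGFP)17Gsat, Tg(Rgs5-EGFP)24Gsat, Tg(Chrna3-EGFP)BZ135Gsat/Mmnc, Tg(6430514L14Rik-EGFP)95Gsat (called Fam81a), Tg(Fbxo32-EGFP)138Gsat/Mmcd and Tg(Ier5-EGFP)267Gsat. Ganglion cells came from 129SVCB6(PV-CRE#32)SA-09 crossed to ThyStopY, Tg(Drd4-EGFP)W18Gsat/Mmnc, C57BL/6-Tg(Grik4-Cre)G32-4Stuj and mOpn4-Cre1D4 (melanopsin, called Opn4). All Cre lines but PV-CRE carry the reporter Rosa26-LSL-RFP. What a driver marks sets which cells a line stands for, and Drd4 carries an EGFP line name beside the word RFP in another label. All arrays are labelled with a mixed FVB/N-Swiss Webster and C57BL/6J background, and the growth protocol mentions a recessive photoreceptor degeneration mutation in part of the mice before backcrossing. No treatment is labelled.

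Values are deposited intensities, analysed as log2. The 78 columns have identical sorted values, so a member's level is relative to the rest of the RNA on its array, and fewer cells of a type or less RNA per cell cannot be told apart. Depth does not apply to arrays, and their number limits the precision. Marker genes separated rods, cones and microglia as labelled. The 7 rod markers summed to between 7344 and 7835 in the b2 sets, against 1518 in Chrnb4 and 1987 in d4. Outside the photoreceptor lines the rod markers ran from 14.2 in Gja10 to 1148 in Kcng4. They also reached 1026 in Lhx4, 885 in Crh, 850 in mGluR6, 602 in Drd4 and 574 in Pcp2. The 9 cone markers summed to between 13.2 and 70.2 in the b2 sets, against 15221 in Chrnb4 and 15894 in d4. Outside the photoreceptor lines the cone markers ran from 19.2 in Rgs5 to 1061 in Chrna3, with 380 in Lhx4 the next highest. The 10 microglia markers summed to 8460 in Csf2rb2, against between 66 and 743 elsewhere. Arrays of a set correlated with a lowest r (across genes, which are not independent) of 0.7 in Crh, 0.769 in Chrna3, 0.778 in Chrnb4, 0.779 in Drd4 and 0.785 in Lhx4, and at 0.8 or more in the other sets. By label 24 arrays belong to batch 1, 12 to batch 2 and 33 to batch 3, while 9 carry no batch (d4, Arc 2nd and Fbxo32).

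The start regions of 4 members are shown first, from the RefSeq promoter table, build GRCm38.p6, 250 bases before to 50 after the start the table uses. For Cox6b1 and Cox6a1 that start is the outer end of the annotated gene, but for Ndufs7 it lies 344 and for Cox5a 3904 bases inside it, so the sequence at the outer end of these genes is not shown or searched. Cox5a carried the smallest adjusted p but one among the members lower in rods than in cones. Ndufs7 was the member whose 3 microglia arrays lay below every other array, and Cox6b1 moved in 4 comparisons. Cox6a1 was called in no class comparison and is shown for its matches to a pair of the motifs searched. Its line mean was 1176 in b2, against 1977 in Chrnb4 and 1934 in d4. Capitals mark matches, on either strand, to the binding motifs of NRF1 (GCGCA, any base, GCGC), of ETS factors such as GABP (CCGGAAG) and of YY1 (AAGATGGCG), factors known to act on many respiratory chain genes. The letters of these motifs do not overlap in the 4 sequences.
Cox5a (chr9:57520982-57521281, + strand): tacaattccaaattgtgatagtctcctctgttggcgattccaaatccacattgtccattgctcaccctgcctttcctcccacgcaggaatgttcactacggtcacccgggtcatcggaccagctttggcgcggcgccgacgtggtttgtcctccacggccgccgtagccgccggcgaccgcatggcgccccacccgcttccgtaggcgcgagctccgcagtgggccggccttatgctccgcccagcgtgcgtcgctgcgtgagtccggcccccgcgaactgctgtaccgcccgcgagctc
Ndufs7 (chr10:80249199-80249498, + strand): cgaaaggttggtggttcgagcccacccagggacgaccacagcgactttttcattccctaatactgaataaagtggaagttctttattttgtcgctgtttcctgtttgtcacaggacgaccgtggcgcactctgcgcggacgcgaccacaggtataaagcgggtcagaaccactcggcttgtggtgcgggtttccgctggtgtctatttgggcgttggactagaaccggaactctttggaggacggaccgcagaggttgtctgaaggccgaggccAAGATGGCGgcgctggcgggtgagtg
Cox6b1 (chr7:30626065-30626364, - strand): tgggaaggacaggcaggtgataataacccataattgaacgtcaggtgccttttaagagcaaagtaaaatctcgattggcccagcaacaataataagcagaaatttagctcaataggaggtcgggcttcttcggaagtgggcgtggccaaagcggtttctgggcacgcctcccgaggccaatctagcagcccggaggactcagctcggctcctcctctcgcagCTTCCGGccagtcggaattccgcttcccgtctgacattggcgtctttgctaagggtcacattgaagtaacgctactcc
Cox6a1 (chr5:115348909-115349208, - strand): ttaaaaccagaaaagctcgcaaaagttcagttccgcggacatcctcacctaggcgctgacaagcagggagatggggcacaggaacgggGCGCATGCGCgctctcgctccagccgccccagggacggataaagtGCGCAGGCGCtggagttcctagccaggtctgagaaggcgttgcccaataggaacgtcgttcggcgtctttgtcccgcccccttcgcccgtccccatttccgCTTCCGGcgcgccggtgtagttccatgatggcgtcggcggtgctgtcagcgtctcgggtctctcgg

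The 4 windows differ in the matches they hold. Cox6a1 holds 2 NRF1 matches, at bases 89 and 134 of the window, and an ETS match at base 235, Cox6b1 an ETS match at base 223, and Ndufs7 a YY1 match at base 275. Cox5a holds none of these letters in this window. Of the 82 members 66 have a window in the table, 54 at the outer end of the gene and 12 inside it. An NRF1 match stood in 14 of them (21.2%), against 8.59% of the 12050 windows of tested genes. ETS matches stood in 16 (24.2%, against 14.5%), and YY1 matches in 6 (9.09%, against 2.51%). At least 1 of the 3 motifs stood in 31 member windows (47.0%, against 23.1% of tested genes). These are matches of letters, not measured sites.

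Most members gave a bright signal throughout the retina. The mean over the 22 lines ran from 5.10 to 2887 intensity units, with a median of 426.3 over the members and 11.54 over all 15102 genes tested. Probe sets differ in how they bind, so these values do not rank one transcript against another. All 82 passed the filter on low values, a mean above 9.01 in at least 1 set, and 75 stayed above that level in all 22 lines. The 7 others are all isoforms of complex IV: Cox7b2 was below it in 21 lines, Ndufa4l2 in 19, Cox8b in 16, Cox8c in 8, Cox6a2 in 3, and Cox4i2 and Cox7a1 in 1 each. By complex, the brightest and dimmest probe sets were Ndufc2 (1768) and Ndufa13 (57.8) in complex I, Sdhb (417.9) and Sdhd (29.7) in complex II, Cyc1 (906.7) and Uqcr10 (53.1) in complex III, Cox6b1 (2887) and Cox7b2 (5.10) in complex IV, and Atp5g3 (2449) and Atp5pb (76.0) in complex V.

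For 10 members the identifier of the chosen probe set stands among those of genes on another chromosome, as a copy of the gene elsewhere could give: Atp5h, Atp5l, Cox6c, Cox7a2l, Cox7b, Ndufb11, Ndufc1, Ndufs3, Uqcr11 and Uqcrb. That is 12.2% of the members, against 1.47% of 19368 named probe sets placed in the same way. Their values may hold signal of such copies, and each is called uncertain below.

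Across the 22 lines the median of the members set apart 2 lines at the low end, as the plot of array medians shows. The 3 Csf2rb2 arrays had medians of 218.5, 222.7 and 273.8. The 9 b2 arrays ran from 258.8 to 377.6, with middle values of 274.3 in the 1st set, 313.2 in the single set and 337.7 in the 2nd set. The 6 cone arrays, at 400.7 to 478.0, lay above all 9 rod arrays. Of the other lines' arrays 2 fell within the range of the rods, a Crh array at 261.0, whose replicates had 405.9 and 443.3, and a Chrna3 array at 370.4. At the high end stood Fam81a (506.2, 532.3 and 597.7) and PV (517.5, 533.7 and 538.1), whose arrays overlap with each other and with those of Fbxo32 and Drd4.

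**Figure D1:**
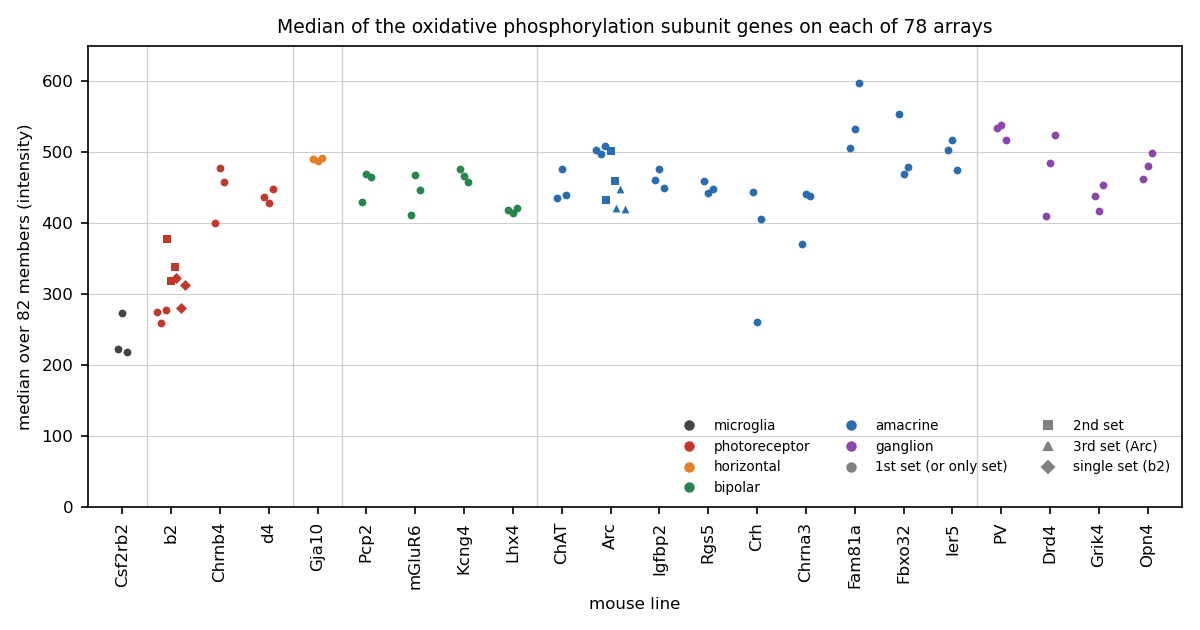
Median intensity of the 82 members (vertical axis) on each of the 78 arrays, by mouse line (horizontal axis); colours give the cell class and shapes the repeated sets of b2 and Arc. The microglia line Csf2rb2 (218.5 to 273.8) and the rod line b2 (258.8 to 377.6) lie below the cone lines (400.7 to 478.0) and most other lines.

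Taking each member in turn, Csf2rb2 had the lowest of the 22 line means for 41 members (50%), against 9.01% of all genes tested. The b2 line was lowest for 15 (18.3%, against 10.1%), and Crh for 11 (13.4%, against 13.3%). Highest means were found in Fam81a for 15 members (18.3%, against 1.64%), in PV for 11 (13.4%, against 2.84%) and in Chrnb4 for 11 (13.4%, against 7.76%), and never in b2 or Csf2rb2, which were highest for 9.2% and 11.8% of all genes. The heat map of line means shows low columns for both lines in complexes I, III, IV and V. In complex II, Csf2rb2 was near the other classes for Sdhb and Sdhd.

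**Figure D2:**
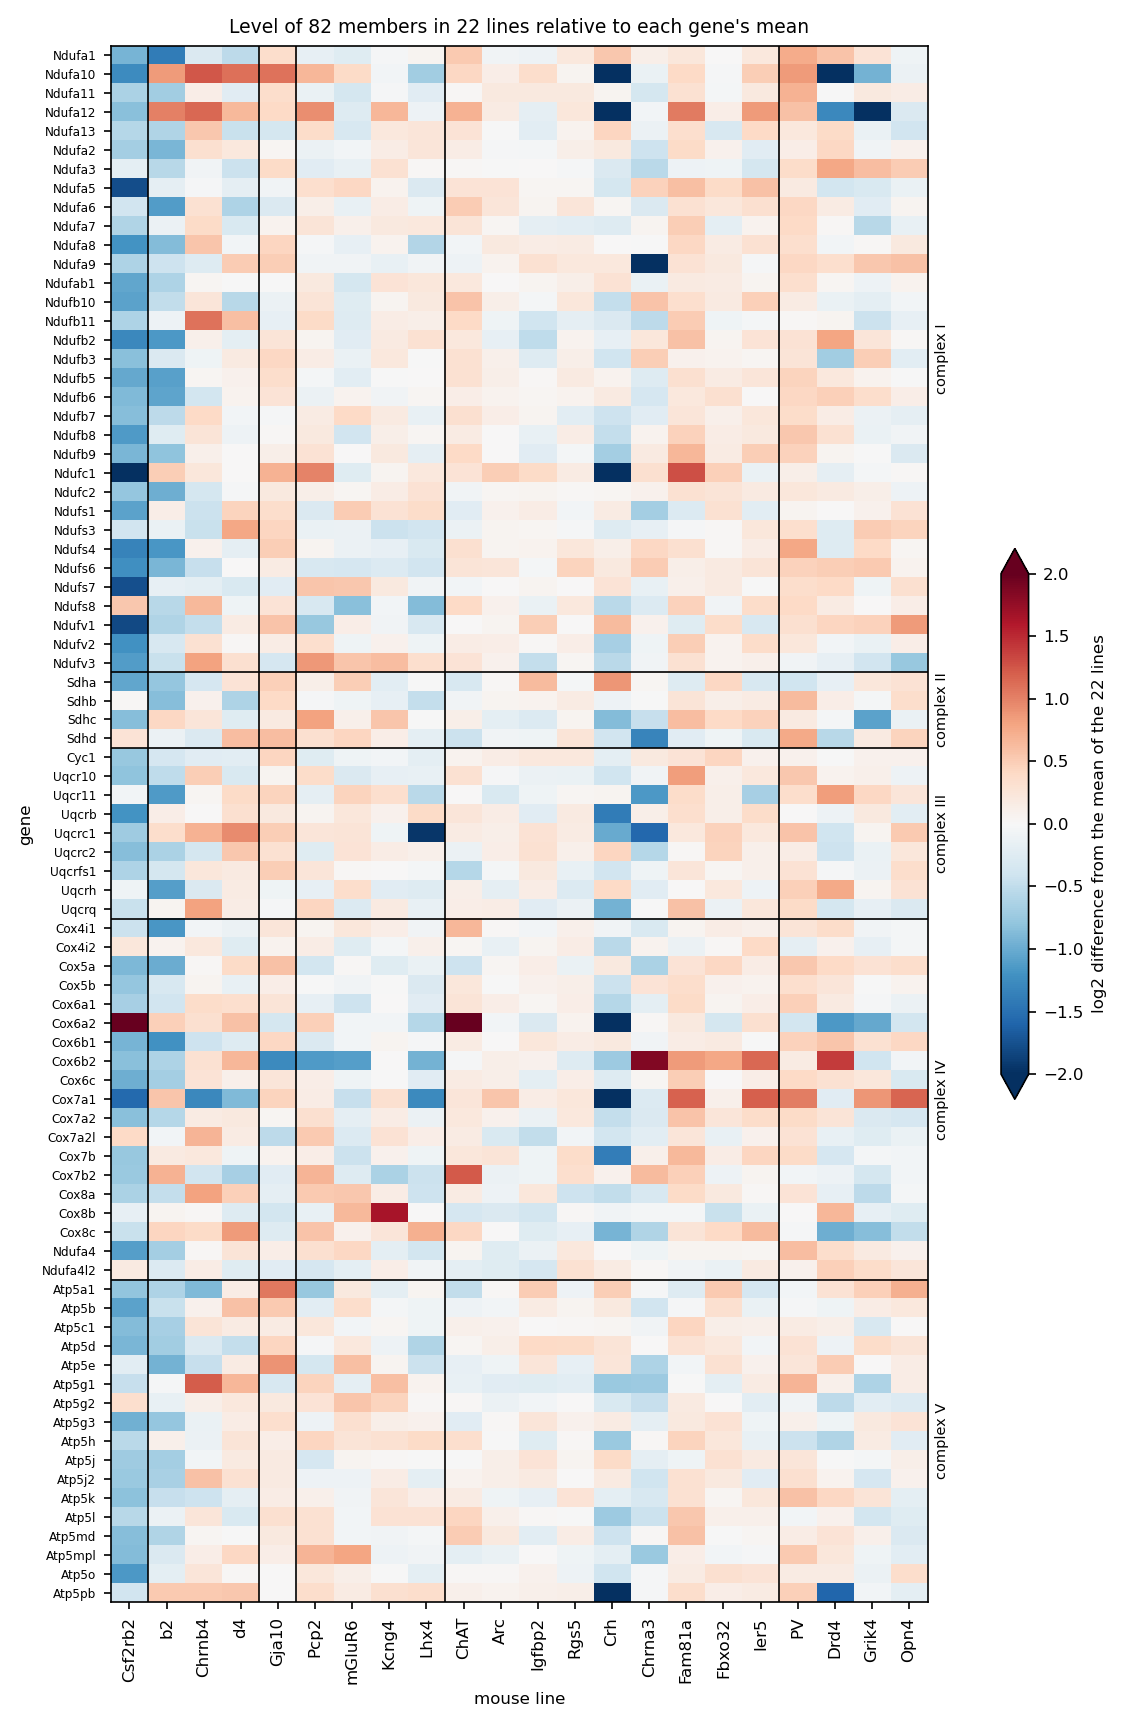
Log2 difference of each line mean from the gene's mean over the 22 lines (colour, cut at 2 in both directions) for the 82 members, grouped by complex from I (top) to V (bottom), with lines grouped by class. The Csf2rb2 and b2 columns are blue for most members, and single dark cells such as Ndufa12, Ndufc1 (uncertain probe set) and Atp5pb in Crh or Cox6a2 in ChAT stand apart from their rows.

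The comparison of rods with cones asks whether the 2 photoreceptor types differ in these genes. The rods come from the b2 line alone, so the p-values hold no spread between rod lines. Rods had lower levels of most members, in all 5 complexes, while 2 isoforms of complex IV passed as higher, on dim signals. By limma with Benjamini-Hochberg adjustment over 15102 genes, 46 of 82 members were lower in rods at an adjusted p below 0.05, a rule that called 13.1% of all genes lower, and 2 were higher, against 8.35% of all genes. The median difference was -0.57 log2 units over the members and -0.04 over all genes, and 70 of 82 members had a negative difference. Lower calls were 19 of 33 in complex I, 2 of 4 in complex II, 5 of 9 in complex III, 11 of 19 in complex IV and 9 of 17 in complex V.

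In cytochrome c oxidase the smallest adjusted p-values of all members were those of Cox4i1 and Cox5a. Cox5a, a core nuclear subunit, ran from 436.2 to 987.9 on the 9 rod arrays (median 659.6), against 1213 to 1742 on the 6 cone arrays (median 1531). All rod arrays lay below all cone arrays, and the difference was -1.20 log2 units (SE 0.10, adjusted p = 2.5e-14). For Cox4i1, the main form of the subunit that regulates the enzyme, the rod arrays ran from 538.1 to 1300 (median 869.1), against 1702 to 2046 on cone arrays (median 1830). The groups again did not overlap, with a difference of -1.08 (SE 0.09, adjusted p = 2.4e-15). Cox6b1, which joins the monomers of the enzyme, had a mean of 1245 in rods and 2290 in cones, a difference of -0.88 without overlap (SE 0.09). Cox8a fell to a mean of 316.3 in rods, against 688.0 in cones, and its arrays overlapped at 536.4 in rods and 533.4 in cones. Cox6b2, a form known from testis, had a median of 18.3 on rod arrays and 50.6 on cone arrays (difference -1.10, SE 0.33), which overlapped.

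In complex I the largest falls were in accessory subunits. Ndufa2 averaged 343.0 in rods and 776.9 in cones (difference -1.18, SE 0.13), Ndufb5 387.8 in rods and 859.0 in cones (-1.15, SE 0.12), and Ndufa8 231.7 in rods and 505.2 in cones (-1.12, SE 0.15). For these 3 every rod array was below every cone array. Ndufs4, needed for a stable complex and known from Leigh syndrome in people, had a mean of 284.5 in rods and 616.6 in cones (-1.12, SE 0.21), and Ndufb2 one of 153.9 in rods and 332.0 in cones (-1.11, SE 0.17), both with overlapping arrays. The subunits that hold iron-sulphur clusters or the NADH site were divided. Ndufv2 (-0.48, SE 0.17, adjusted p = 0.037) and Ndufs8 (-0.84, SE 0.25) fell, while Ndufs1 (0.12, adjusted p = 0.77), Ndufs7 (0.09, adjusted p = 0.77) and Ndufv1 (-0.45, adjusted p = 0.098) did not pass.

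Of complex V, Atp5j2, a subunit of the membrane part, ran from 648.0 to 1168 on rod arrays, against 1721 to 2537 on cone arrays, a difference of -1.10 (SE 0.10). The catalytic subunit gene Atp5b averaged 801.2 in rods and 1380 in cones (-0.78, SE 0.12), while Atp5a1, its partner in the catalytic head, averaged 465.6 in rods and 554.5 in cones and did not pass (-0.25, adjusted p = 0.30). In complex III, Uqcr11 had the lowest difference of all members (-1.35, SE 0.21), with an uncertain probe set. Cyc1, the haem-bearing cytochrome c1, averaged 716.0 in rods and 778.6 in cones and did not pass (-0.12, adjusted p = 0.60). Of succinate dehydrogenase, the catalytic Sdha (-0.74) and Sdhb (-0.58) fell, and the membrane anchors Sdhc (0.41, adjusted p = 0.27) and Sdhd (-0.29, adjusted p = 0.51) did not pass.

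Higher in rods were Cox7a1, the form known from heart and skeletal muscle, and Cox7b2, a form known from testis. Cox7a1 ran from 17.3 to 258.1 on rod arrays (median 37.4), against 2.89 to 59.0 on cone arrays (median 18.5), a difference of 1.65 (SE 0.58, adjusted p = 0.032) with overlapping groups. It did not pass with set means as the unit, or without the 2nd (1.59) or 3rd (1.04) replicates. Cox7b2 ran from 2.41 to 23.1 in rods (median 7.18), against 1.99 to 9.29 in cones (median 3.10), partly under the floor of 3.99. That floor is the highest value up to which, on any array, the lowest values stand in the order of the probe set identifiers. With values under the floor set to it the difference was 0.89, and without the 2nd or 3rd replicates, or in batch 1 alone, Cox7b2 did not pass. Across all members, 10 had every rod array below every cone array, against 1.8% of all genes, and 0 had every rod array above, against 1.31%.

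Between rods and cones the difference also held within batch 1, where the 1st b2 set against Chrnb4 gave 40 members lower, against 5.82% of all genes, and 1 higher, against 3.82%. With set means in place of arrays as the unit, 11 members were lower and 1 higher: Cox5a, Ndufa2, Ndufb5, Ndufa8, Atp5j2, Cox4i1, Ndufa1, Ndufb6, Atp5c1, Cox6b1 and Atp5g3 fell and Cox7b2 rose. By this stricter unit 3.19% of all genes were lower and 2.06% higher. As all b2 sets are of the same line, this unit also holds no spread between rod lines. Stress genes (11 in the table), which include immediate early genes, summed to between 669 and 747 in the b2 sets, against 347 in Chrnb4 and 455 in d4, and their part in the result was not tested.

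**Figure D3:**
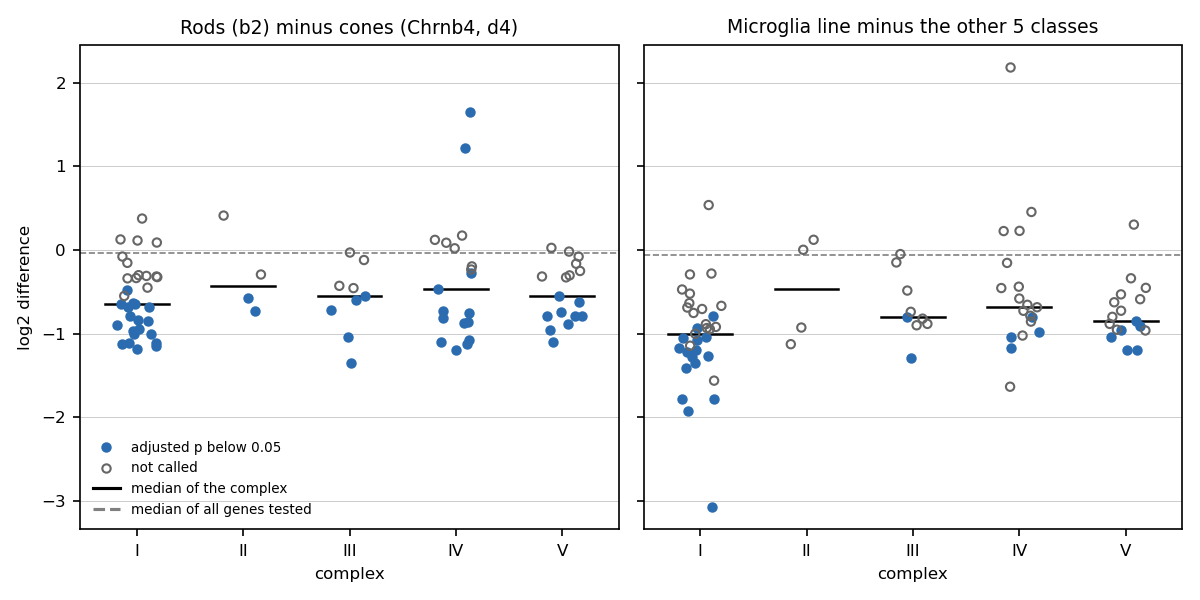
Log2 difference of each member by complex, rods minus cones (left) and the microglia line minus the mean of the other 5 classes (right); filled points passed at an adjusted p below 0.05, black bars are medians of a complex and the dashed line is the median of all genes tested. Most points lie below 0 in both panels, with Cox7a1 (1.65) and Cox7b2, whose cone values lie mostly under the floor, above it on the left.

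The comparison of the microglia line with the mean of the other 5 classes sets immune cells against the neurons of the same tissue. Microglia had lower levels of members of complexes I, III, IV and V, most often in complex I. On the 22 line means, limma called 28 of 82 members lower, a share of 34.1%, against 3.93% of all genes, and 0 higher, against 6.72% of all genes. At an unadjusted p below 0.05 the count of members was 47 (57.3%), against 20.1% of all genes. The median difference was -0.86 over the members and -0.06 over all genes, and 74 of 82 differences were negative. Calls came to 16 of 33 in complex I, 0 of 4 in complex II, 2 of 9 in complex III, 4 of 19 in complex IV and 6 of 17 in complex V. As the class holds 1 line, its spread is taken from the other classes.

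Ndufs7, a core subunit with an iron-sulphur cluster on the path to ubiquinone, read 200.8, 69.5 and 132.3 on the microglia arrays, against line means of 335.7 to 608.1 in the other 21 lines. It was the one member with all 3 microglia arrays below the other 75, against 0.411% of all genes, at a difference of -1.78 (SE 0.24, adjusted p = 1.5e-05). Ndufv1, which binds NADH, read 129.6, 304.0 and 191.6 in microglia, against line means of 401.8 to 1235 elsewhere (-1.93, SE 0.34, adjusted p = 0.00040). Single arrays overlapped, as a b2 array read 170.1 and a Pcp2 array 230.2. Ndufa5 read 65.2, 112.3 and 107.6, against 245.4 to 477.5 (-1.78, SE 0.31). Ndufs4 read 172.9, 308.3 and 299.5, against line means of 284.5 to 1087, so that it overlapped with the lowest line, b2. The other large falls in complex I were Ndufb2 (-1.35), Ndufv2 (-1.28), Ndufa8 (-1.27) and Ndufs6 (-1.22), and Ndufc1 (-3.07, SE 0.83) and Uqcrb of complex III (-1.30) fell with uncertain probe sets.

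**Figure D4:**
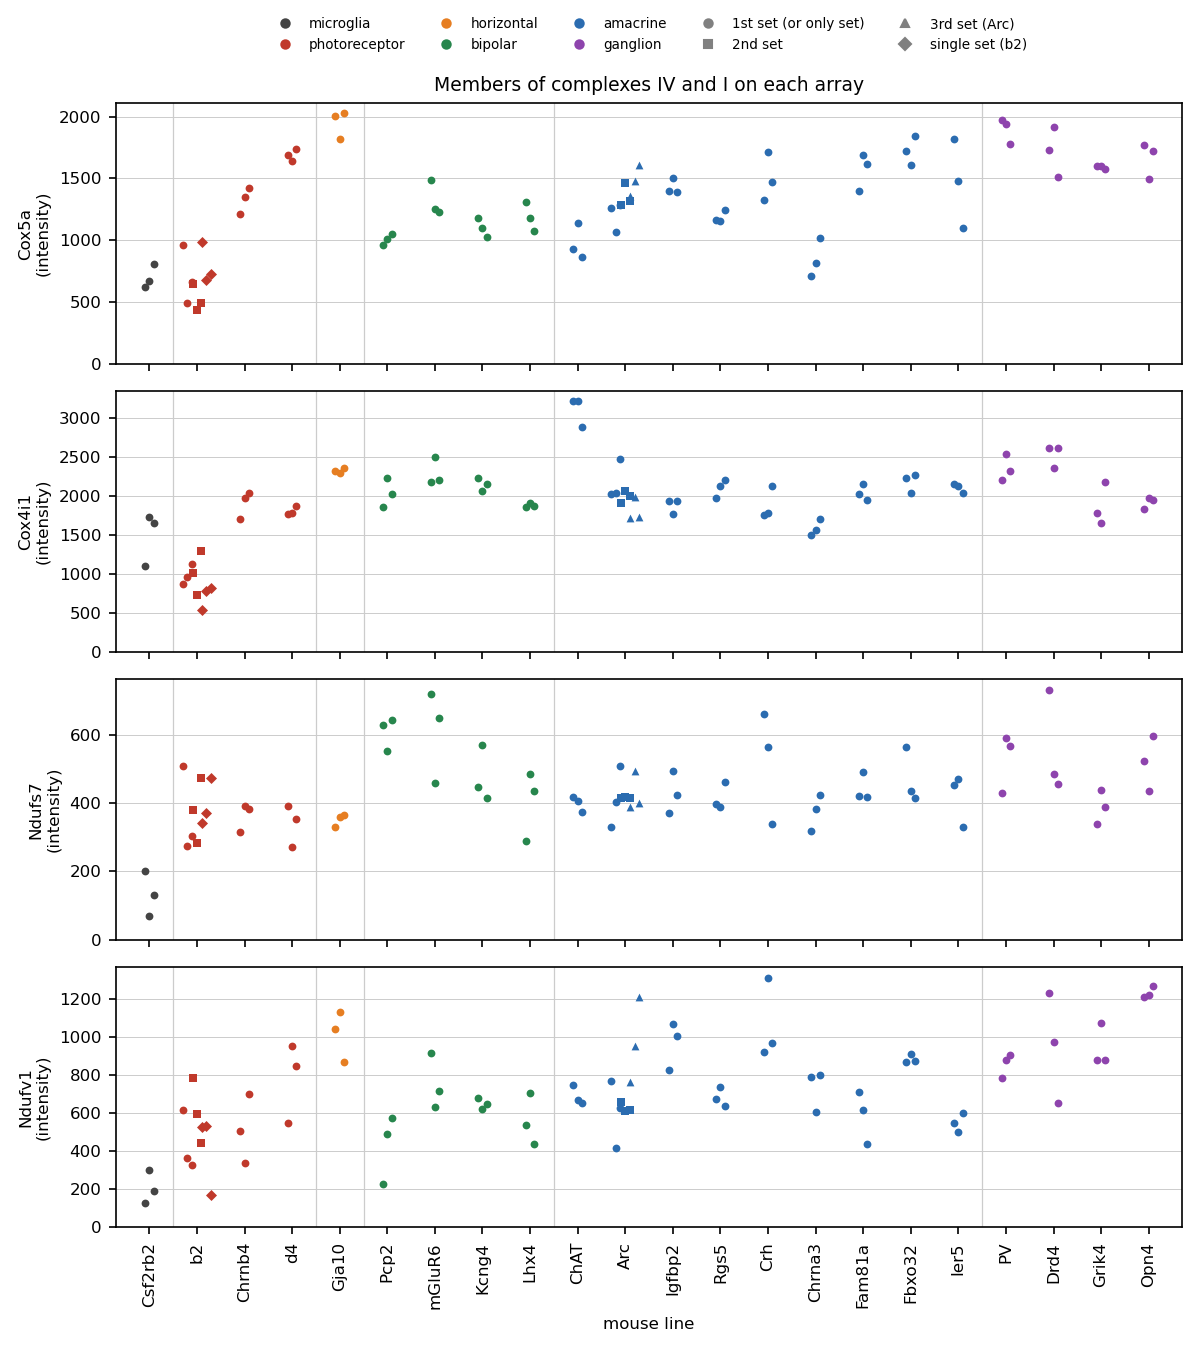
Intensity of Cox5a, Cox4i1, Ndufs7 and Ndufv1 (vertical axes, linear from 0) on each of the 78 arrays by mouse line, with colours for cell classes and shapes for repeated sets. Rod arrays lie below cone arrays for Cox5a and Cox4i1, ChAT is highest for Cox4i1, and the 3 Csf2rb2 arrays are lowest for Ndufs7.

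In ATP synthase, Atp5o, the stalk subunit that links the head to the membrane part, read 244.3, 282.1 and 193.0 in microglia, against line means of 397.2 to 667.8 (-1.20, SE 0.24, adjusted p = 0.0014). Atp5b read 833.0, 302.8 and 567.8, against 801.3 to 1639 (-1.20, SE 0.27). The main form of the membrane ring, Atp5g3, fell by 1.04 on the log2 scale, while Atp5g2, another gene of the same protein, had a difference of 0.30 (adjusted p = 0.64). Cyc1 fell by 0.80 (SE 0.16) and Cox5b by 0.81 (SE 0.20). Sdhb, at 424.0 in microglia and 423.5 over the other classes, had a difference of 0.00, with an SE of 0.28 and an adjusted p of 0.999. Cox6a2, the form known from heart and skeletal muscle, was the largest positive value, 111.5, 76.2 and 49.8 on microglia arrays, against line means of 4.42 to 80.0, and did not pass (2.18, SE 0.77, adjusted p = 0.083).

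Within batch 3, to which the microglia arrays belong, 39 members were lower, against 6.48% of all genes, and 1 higher, against 6.27%, and 18 members had all 3 microglia arrays below the other 30 arrays of the batch, against 3.93% of all genes. With batch as a term 16 were called, all lower, against 3.52% of all genes. These include Atp5a1 (-1.31) and Cox5a (-1.11), which were not called in the main fit, and do not include Cox5b. Among the members named above, Ndufs4 (-1.08, adjusted p = 0.22), Ndufb2 (-0.96, 0.35), Uqcrb (-1.03, 0.32, uncertain probe set), Ndufa8 (-1.15, 0.061) and Ndufs6 (-0.95, 0.27) then did not pass in limma. When each array was scaled to the 49 cytosolic ribosomal protein genes, 53 members were lower, against 9.77% of all genes. That scaling shifts all genes of an array alike and moved the median of all genes to -0.73, and the scaling genes themselves included 9 that were higher in microglia. Of other cells' markers in the Csf2rb2 set, the 7 common to rods and cones summed to 594, against 10340 to 10878 in the photoreceptor sets and between 12 and 578 in the other sets, and their part in the result was not tested.

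The photoreceptor class as a whole stood near the other classes. Set against the mean of the others, 3 members were lower (Ndufa1 -0.71, Cox6b1 -0.62 and Sdhb -0.58), against 7.65% of all genes lower, and 1 was higher, Ndufb11 (0.71, uncertain probe set), against 3.11%. The members' median difference was -0.03, and that of all genes -0.05. Rods and cones differ within the class: Ndufa1 had a line mean of 479.6 in b2 and up to 1042 in the cone lines. The call depends on the reference: without Csf2rb2 10 members were called, all lower. In batch 1 alone 0 were called, against 0.689% of all genes higher and 0.901% lower. With the ribosomal scaling 1 member was higher, against 4.77% of all genes, and 0 lower, against 1.99%. With the batch term 5 members were lower, against 3.56% of all genes, and 0 higher, against 1.12%, with Ndufb11 at 0.16 (adjusted p = 0.82 in limma).

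Ganglion cells send the output of the eye along the optic nerve. As a class they had 8 members higher, 6 of them in complex I, against 6.47% of all genes, and 0 lower, against 2.92% of all genes. Ndufv1 averaged 979.8 in the 4 ganglion lines (856.3 to 1235) and 541.3 over the other classes, a difference of 0.86 (SE 0.19, adjusted p = 0.0084). Ndufs6 (0.71), Ndufa3 (0.63), Ndufa1 (0.62), Ndufs7 (0.61) and Ndufb6 (0.54) also rose. From complex IV, Cox6b1 averaged 3889 in ganglion lines (3558 to 4218) and 2473 over the other classes (0.65, SE 0.12, adjusted p = 0.0015), and Ndufa4 rose by 0.52. The share of members called, 9.76%, is near that of all genes. Without Csf2rb2 in the reference 3 were called, without Drd4 4, without Crh 13 and without Gja10 18. The ribosomal scaling gave 19, while it moved the median of all genes to 0.36 and had 8.41% of all genes higher. Drd4 and Grik4 also carried markers of other cells. The 9 Müller glia markers summed to 2734 in Drd4 and 1537 in Grik4, against 424 in PV and 602 in Opn4. Pigment epithelium markers summed to 875 in Drd4 and 1126 in Grik4, against 61 in PV and 163 in Opn4. Endothelial ones summed to 313 in Drd4 and 792 in Grik4, against 49 in PV and 75 in Opn4. Bipolar markers summed to 1403 in Drd4 and 675 in Grik4, against 337 in PV and 319 in Opn4. Rod markers summed to 602 in Drd4, against 93 in Grik4, 68 in PV and 85 in Opn4. Those common to rods and cones summed to 578 in Drd4, against 78 in Grik4, 18 in PV and 82 in Opn4. Microglia markers summed to 743 in Grik4, against 152 in Drd4, 79 in PV and 114 in Opn4. Outside the class, Müller glia sums were also high in Gja10 (1843) and Crh (1452). The part of these markers' cells in the values was not tested.

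Amacrine lines had 6 members higher, against 3.69% of all genes, and 0 lower, against 3.89% of all genes: Ndufa5 (0.66, SE 0.14), Ndufs6 (0.53), Ndufb10 (0.51), Ndufs7 (0.38), Atp5d (0.36) and Cyc1 (0.29). Bipolar lines had 2, Ndufv3 (0.92, SE 0.23) and Ndufs7 (0.69, SE 0.14), against 2.25% of all genes, and 0 lower, against 3.05%. For both classes 0 members were called once Csf2rb2 was left out of the reference. With the batch term 0 of the 6 amacrine members passed (adjusted p between 0.109 and 0.246 in limma). The 2 calls made with it were Ndufv1 (0.55) and Cox6b1 (0.31), against 3.30% of all genes higher. With the ribosomal scaling 2 amacrine members were higher, against 2.01% of all genes, and 0 lower, against 1.225%. The bipolar class had 0 higher with that scaling, against 0.801% of all genes, and 1 lower, against 1.54%. The 1 horizontal cell line, Gja10, had 0 calls in limma (11 members, 13.4%, at an unadjusted p below 0.05, against 8.12% of all genes), against 1.13% of all genes higher and 0.219% lower, with a median difference of 0.34 over the members and -0.02 over all genes, and 68 of 82 members above 0.

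Within classes, the labelled cell types were set against the other lines of the class on all 78 arrays. The starburst line ChAT, whose cells shape direction selectivity, was set apart by 2 subunits of complex IV. Cox6a2 read 48.7, 111.8 and 94.1 in ChAT, against 2.38 to 42.3 on the 30 other amacrine arrays (median 15.97), a difference of 2.40 (SE 0.39, adjusted p = 1.1e-05) with all 3 arrays above the others. Cox4i1 read 3217.5, 3217.5 and 2896, against 1503 to 2472 elsewhere in the class, also without overlap (0.66, SE 0.10). Ndufb11 (0.53, uncertain probe set) rose as well, and Cox5a (-0.47) and Uqcrfs1, the Rieske iron-sulphur protein of complex III (-0.56), fell. In this comparison 1.83% of all genes were higher and 2.75% lower. With the ribosomal scaling 1 member was higher, against 0.616% of all genes, and 2 lower, against 3.44%. Cox4i1 (0.32, adjusted p = 0.34) and Ndufb11 (0.19, adjusted p = 0.57) then did not pass in limma, while Cox6a2 was at 2.06.

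The parvalbumin ganglion line PV had 9 members higher than the mean of Drd4, Grik4 and Opn4, against 5.41% of all genes, and 0 lower, against 6.27%. Ndufa10 read 358.9, 394.1 and 368.2 in PV, against 3.93 to 239.1 on the other 9 arrays, a difference of 2.02 (SE 0.58, adjusted p = 0.016 in limma). The 3.93 lies under the floor of 3.99. It came from the 6 Drd4 and Grik4 arrays, whose median was 125.7 and whose mean, taken in log2, was 64.3. The other 8 members higher in PV were Ndufa7 (0.63), Ndufa11 (0.59), Atp5mpl (0.54), Cox8a (0.52), Ndufb8 (0.50), Ndufa4 (0.41), Atp5j2 (0.38) and Cox6c (0.33, uncertain probe set), all with overlapping arrays. PV is of batch 1 and the other 3 lines of batch 3, so that line and batch cannot be told apart. Leaving out the 2nd or the 3rd replicates left 0 calls, and leaving out the 1st left 4. The ribosomal scaling left Ndufa10 alone, against 2.91% of all genes higher.

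The rod bipolar line Pcp2 had 2 members higher, against 1.72% of all genes, and 2 lower, against 3.23%, than the other bipolar lines. Pcp2 is the one bipolar line of batch 1, so that line and batch cannot be told apart. Atp5a1 read 418.6, 574.1 and 319.4 in Pcp2, against 583.8 to 856.3 elsewhere in the class, a difference of -0.77 without overlap (SE 0.21, adjusted p = 0.019). Atp5mpl (0.47) and Ndufa4 (0.38) rose, and Cox8b fell to 6.46 to 9.09 in Pcp2, against 6.37 to 52.7 in the others (-0.93). With the ribosomal scaling 0 of the 4 passed, and without 1 replicate 1 or 2 did. The melanopsin line Opn4 had 0 members higher, against 1.19% of all genes, and 1 lower than Drd4 and Grik4, against 1.68%: Cox6c, at 859.3, 773.5 and 912.1 in Opn4, against 1204 to 1430 in the others (-0.57, SE 0.12), with an uncertain probe set. It did not pass once any replicate number was left out.

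Several subunits are encoded by more than 1 gene, with forms known from particular tissues. Cox6a2 had line means between 4.42 (Crh) and 27.4 (d4) in all lines but ChAT (80.0) and Csf2rb2 (75.1), while Cox6a1, the form of most tissues, ran from 968.4 (Csf2rb2) to 2132 (PV). Cox6b2 was highest in Chrna3, at 212.8, 65.2 and 100.2, followed by Drd4 (104.4, 52.5 and 98.5) and Ier5 (187.3, 35.9 and 47.5). These arrays overlap with each other. Its lowest means were in Gja10 (12.7), Pcp2 (14.0) and mGluR6 (14.3). Cox7a1 was highest in Ier5 (80.1), Fam81a (79.2) and Opn4 (78.1) and lowest in Crh (7.38), Csf2rb2 (11.9) and Chrnb4 (14.2). Cox8b was highest in Kcng4 (18.1, 52.7 and 22.9) and then in Drd4 and mGluR6, with line means of 14.2 and 14.1, and lay between 6.59 and 9.30 in the rest. Cox7b2 reached 11.96 in ChAT, on arrays of 6.80, 9.10 and 27.7. Cox4i2, a form known from lung, stayed between 8.22 and 15.7, and Ndufa4l2, known as a gene induced by low oxygen, between 6.02 and 10.6. Cox8c reached 19.2 in d4. Of the 3 genes of the same ATP synthase ring protein, Atp5g1 was highest in Chrnb4 (307.9), Atp5g2 in mGluR6 (425.4) and Atp5g3 in Gja10 (3098). These orders are descriptions, and neighbouring lines in them overlap.

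**Figure D5:**
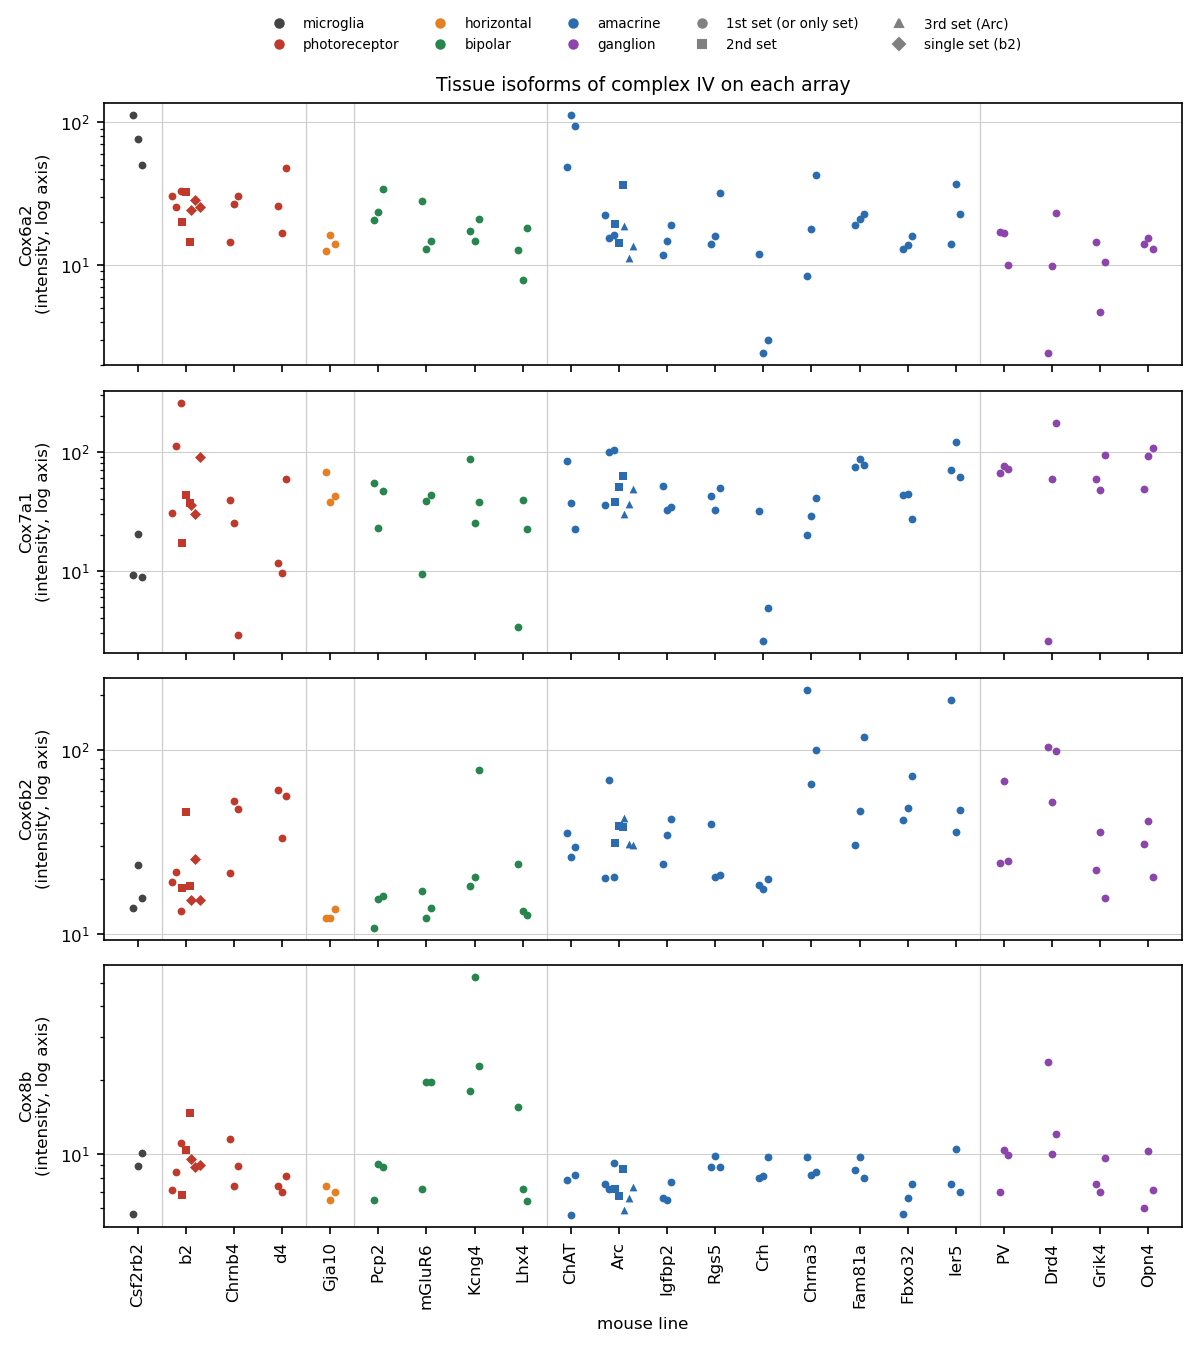
Intensity of the complex IV isoforms Cox6a2, Cox7a1, Cox6b2 and Cox8b (vertical axes, log scale) on each of the 78 arrays by mouse line. Cox6a2 is high in Csf2rb2 (49.8 to 111.5) and ChAT (48.7 to 111.8), Cox8b in Kcng4 (18.1 to 52.7), and low points such as those of Crh lie at or under the floor of 3.99.

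The members that varied most between lines, by the SD of the 22 log2 line means, were Ndufa12 (1.11), Ndufa10 (1.00), Ndufc1 (0.98, uncertain probe set), Cox7a1 (0.95), Cox6a2 (0.91), Cox6b2 (0.86), Uqcrc1 (0.72), Atp5pb (0.64), Ndufa9 (0.62) and Ndufv1 (0.58). The median SD was 0.38 over the members and 0.42 over all genes. Several of these rest on 1 or 2 arrays far below their replicates, most of them under the floor of 3.99. Ndufa12 read 93.9, 3.70 and 2.80 in Crh and 91.7, 3.20 and 75.5 in Grik4, Ndufa10 204.1, 3.70 and 87.1 in Crh, Ndufa9 2.20, 283.0 and 307.2 in Chrna3, and Uqcrc1 5.60, 68.0 and 57.9 in Lhx4. All 3 lines other than Grik4 are among the 5 whose arrays agreed least. The steadiest members were Cox4i2 (0.20), Ndufa4l2 (0.24), Cox5b (0.26), Cyc1 (0.27) and Atp5j (0.28), the first pair near the bottom of the scale and the other three bright.

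Repeated sets of a line show how far the members move when it is measured again, in most cases with another batch label. The 1st b2 set is of batch 1, and its 2nd and single sets are of batch 2. The 1st Arc set is of batch 1, the 3rd of batch 3, and the 2nd has no batch label. Only the single and 2nd b2 sets share a label, so in the other pairs repeat and batch cannot be told apart. In the Arc line 0 members differed between the 2nd and 1st sets (3, or 3.66%, at an unadjusted p below 0.05 in limma, against 3.62% of all genes), against 0.0464% of all genes higher and 0.00662% lower. In the 3rd set 1 was higher (Atp5a1) and 1 lower (Ndufb11, uncertain probe set) than in the 1st, against 0.404% and 0.106%, and 1 was lower than in the 2nd (Atp5md), against 0.0397%. In b2 the 2nd set had 12 members higher and 1 lower than the 1st, against 1.48% of all genes higher and 0.973% lower. The single set had 5 higher and 2 lower than the 1st, against 0.881% and 0.497%, and 3 higher and 6 lower than the 2nd, against 1.28% and 1.16%. The largest were Uqcr11 (2.21, uncertain probe set), Ndufs6 (1.73) and Ndufa6 (1.503), all higher in the 2nd set than in the 1st.

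Over the 22 line means the members went together to a moderate degree, given here as a description over lines that share arrays' normalisation and batches. The median Pearson r between pairs of members was 0.352, against -0.0016 over all tested genes and 0.349 over 49 cytosolic ribosomal protein genes, and it was 0.162 without b2 and Csf2rb2. It was 0.4657 within complex I, 0.404 within complex V, 0.316 in III, 0.172 in IV and 0.091 in II. Of the members 55 had an r above 0.5 to the members' mean, and 3 one below 0, Cox6a2, Ndufa4l2 and Cox4i2. The genes outside the list most like that mean were Fkbp3 (0.851), Ufsp1 (0.831), Timm8b (0.827), Ubxn6 (0.820) and Alkbh7 (0.817). Without b2 and Csf2rb2, Alkbh7 was at 0.791 and the other 4 between 0.497 and 0.580. Of 15 regulators of mitochondrial biogenesis tested, r ran from -0.457 for Pprc1 to 0.359 for Polrmt, the RNA polymerase of mitochondria, with 0.262 for Ppargc1a.

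Other mitochondrial genes were counted in the same fits, to be read against the 13.1% of all genes that were lower and the 8.35% that were higher in rods. In rods against cones 6 of 14 electron and adenylate carriers were lower and 0 higher, among them Slc25a4, the ADP/ATP carrier (-0.83, SE 0.10), Cycs, cytochrome c (-0.88), and Vdac1, a pore of the outer membrane (-2.05). Of 16 genes of pyruvate dehydrogenase and the citric acid cycle 4 were lower and 1 higher, with Idh3a at -1.83 and Idh3b at -1.56. Assembly factors were divided, 8 lower and 6 higher of 41, from Ndufaf2 (-3.48, SE 0.38) to Ndufaf7 (1.32, SE 0.42). Of 15 biogenesis regulators Tfam (-1.24) was lower and Ppargc1b (1.13) and Esrra (0.71) were higher. Mitochondrial ribosomal protein genes gave 25 lower and 4 higher of 76, with a median difference of -0.44. The cytosolic ones gave 4 lower and 5 higher of 49, and these alone are close to the shares of all genes.

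In microglia, where 3.93% of all genes were lower and 6.72% higher, 5 of the 14 carriers were lower and 1 higher, with Slc25a4 at -1.99 (SE 0.21) and Ckmt1, a mitochondrial creatine kinase, at -6.28 (SE 1.49), and 7 of 41 assembly factors were lower and 0 higher, among them Ndufaf5 (-3.98). Of the citric acid cycle Suclg1 (-1.98) and Sucla2 (-1.59) were lower and Suclg2, the form of succinyl-CoA ligase that makes GTP, was higher (2.14, SE 0.34). Pprc1 (1.22) was the 1 regulator that passed. The cytosolic ribosomal protein genes had 9 higher and 0 lower of 49, a direction opposite to the members, and the mitochondrial ones 0 higher and 4 lower of 76.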

How the data were processed

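The deposited values are linear intensities, 1 per probe set and array (22347 on 78 arrays). The authors made them with oligo and RMA in R 2.11.1 on mm9, per the submitters' processing notes. All columns hold the same sorted values. The lowest values of an array stand in the order of the probe set identifiers, over 10 or more probe sets on 70 arrays. The highest value that such a run reached on any array, 3.99, was taken as a floor for all (10.5% of values). Every column maps to a sample, and 0 were left unused. Log2 was taken here. Of the probe sets 19446 name 1 gene, 735 several and 2166 none. Each gene kept its brightest probe set, and 15102 of 19301 genes with a mean above 9.01 (the median of all values) in at least 1 set were tested.

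Tests used limma 3.58.1 in R 4.3.3, with Benjamini-Hochberg adjustment over all genes tested and a call at an adjusted p below 0.05. Classes were compared on 22 line means, each against the unweighted mean of the other 5, and lines, repeated sets and rods with cones on the 78 arrays. The labels call the replicates biological, but nothing used here says that they came from separate animals. In the class comparisons p-values measure the spread between lines of a class, and in the others the spread between arrays of a set. The batch term was estimated from the lines found in more than 1 batch (Arc and b2), without the 3 sets that have no batch label. Replicate numbers were not taken to pair samples. Over 975 pairs of same-numbered arrays the mean correlation of deviations was 0.00021 (-0.536 to 0.439). The pairs run over all sets, also across batches, so this mean cannot show whether numbers pair arrays within a batch. On simulated data, limma recovered 66% of genes changed by 1 log2 unit and 91% by 2 for rods against cones, and 26% and 73% for microglia. The text names the 10 largest calls per direction and comparison, the brightest and dimmest member of a complex, the 10 most and 5 least variable members, the isoform groups, the 5 most similar genes and up to 4 genes of each further list. Others are named as background to these or as members that did not pass, chosen after their values were seen. Members and lists were chosen with earlier results of these data known.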

Additional observations from a re-analysis of the deposited data

Results flagged for a closer look

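Single values that stood apart from their group by Dixon's ratio came to 7 of 100 groups tested, where chance gives about 1 in 20. On the first array of the 1st b2 set, Cox7a2 was 54.985, against 160.87 on the nearest b2 array, and Atp5g3 was 745.02, against 1237.9. In the 1st Arc set, Cox4i1 was 2472.1 on the third array, against 2063.8 on the nearest, and Cox6b1 was 2127.4 on the first, against 2699.8. Among amacrine line means, Cox4i1 was 3106.4 in ChAT, against 2180.7 in the nearest line. In Crh, Cox7a1 was 7.3845, against 28.767, and Cox7b (uncertain probe set) was 239.67, against 587.85.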

How the results depend on the processing

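Counts of members called are given by comparison, with the main count first. The share of all genes called moved with the setting too, so a change in count is not by itself particular to the members. For microglia 3.93% of all genes were lower in the main fit, 9.77% with ribosomal scaling and 3.52% with the batch term. In rods against cones 13.1% were lower in the main fit and 3.19% with set means. For photoreceptors 7.65% were lower in the main fit and 1.99% with ribosomal scaling. Photoreceptors (4) gave 2 with no filter, 1 with ribosomal scaling, 7 without d4, 2 without each of mGluR6, Kcng4, Arc, Igfbp2, Rgs5 and Fbxo32, 10 without Csf2rb2, 0 in batch 1 alone, 0 at a difference of at least 1, and 1 to 6 without 1 replicate number. Horizontal cells (0) gave 1 without b2, 1 without Crh, 1 without the 5 lines of low agreement, 2 in batch 3 alone and 0 without a replicate number. Bipolar cells (2) gave 1 with ribosomal scaling, the batch term, or without mGluR6 or Kcng4, 0 without Csf2rb2, in batch 1 or batch 3 alone or at a difference of at least 1, and 1 to 2 without a replicate number. Amacrine cells (6) gave 2 with ribosomal scaling, 2 others (Ndufv1 and Cox6b1) with the batch term, 16 without Gja10, 3 without Arc, Rgs5, Fam81a or Fbxo32, 0 without Csf2rb2, 0 in batch 1 alone, 1 in batch 3 alone, 10 without the lines of low agreement, 0 at a difference of at least 1, and 4 to 5 without a replicate number. Ganglion cells (8) gave 19 with ribosomal scaling, 18 without Gja10, 13 without Crh, 4 without Drd4, 5 without Grik4, 3 without Csf2rb2, 0 in batch 1 alone or at a difference of at least 1, and 5 to 8 without a replicate number. Microglia (28) gave 53 with ribosomal scaling, 16 with the batch term, 26 to 40 without 1 other line and 23 to 32 without a replicate number. Rods against cones (48) gave 12 with set means, 16 at a difference of at least 1, and 31 to 44 without a replicate number. The rod bipolar line (4) gave 0 with ribosomal scaling or at a difference of at least 1, and 1 to 2 without a replicate number. The starburst line (5) gave 3 with ribosomal scaling, 1 at a difference of at least 1, and 3 to 5. The PV line (9) gave 1 and 1, and 0 to 4. The melanopsin line (1) gave 0 and 0, 0 without members of uncertain probe sets, and 0 without any replicate number. The causes were not tested. Replicate numbers as a block moved no count (48, 4, 5, 9 and 1 with the replicate block). Of values for single members under the alternatives, 1113 kept their call, 275 no longer passed and 1 changed direction, Ndufs7 in amacrine cells in batch 1 alone (-0.22). Signal near the floor limits Cox7b2, Cox8b, Cox6a2 and Ndufa4l2.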

Other observations

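Some subunits of the same complexes are encoded in the mitochondrion's own genome, and 2 probe sets carry names of such genes, COX2 (complex IV) and ND3 (complex I). COX2 line means ran from 149.6 in Crh to 4953 in b2, with a median of 2790, and ND3 from 15.7 in Crh to 462 in b2, with a median of 215. The b2 line, low for most nuclear members, thus had the highest mean of both. In rods against cones the differences were 0.74 for COX2 and 0.83 for ND3, and neither passed (limma adjusted p = 0.49 and 0.30). Across 11 comparisons the smallest adjusted p of either was 0.151. Their r to the mean of the nuclear members over 22 lines was 0.18 and 0.19, as a description.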
